A study of Mus musculus with 36 samples.

Results

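The comparison set blood RNA of FVB/NJ mice against blood RNA of C57Bl/6J mice, a pair of inbred strains that are common backgrounds for transgenic work. It used 6 of the 36 arrays of the series, chosen by strain and RNA preparation: 3 arrays of FVB/NJ and 3 of C57Bl/6J, all hybridized with RNA that had passed through GLOBINclear, a kit that captures and removes alpha and beta globin mRNA. A further 3 arrays of FVB/NJ and 3 of C57Bl/6J carried the untreated portion of the same extracts, here called whole RNA, and served to check direction. The mice were 8 weeks old males with no transgene or treatment named in the labels. Blood was taken by heart puncture into EDTA, and each mouse gave 1 whole and 1 GLOBINclear array. The other 4 strains of the series (129S1/ImJ, A/J, C3H/HeJ and DBA/2J, 12 GLOBINclear arrays) lent their spread to the tests and are named below where a gene's level in them is given.

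Most RNA in blood comes from reticulocytes, young red cells that still hold globin and heme synthesis transcripts, with smaller shares from platelets and from white cells. Laboratory strains differ in immune genes that lie in polymorphic clusters, such as the major histocompatibility complex (H2 in the mouse), whose class II proteins present peptides on B cells and other antigen-presenting cells. Interferons switch on a broad set of antiviral genes, and Irf7 encodes a transcription factor that amplifies that response. In whole blood, fewer cells of a type and less RNA per cell cannot be told apart.

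Values are deposited log2 expression summaries, 1 per probe set, so a difference of 1 is a 2-fold change. The median of the tested probe sets was 3.33 to 3.35 on the FVB/NJ arrays and 3.37 to 3.43 on the C57Bl/6J arrays, and a value near there is close to the bottom of the scale. Pairs of GLOBINclear arrays correlated at 0.966 to 0.988 within FVB/NJ and at 0.918 to 0.981 within C57Bl/6J. The lower end belonged to C57Bl/6J replicate 1, whose mean correlation with its own group was 0.935 and which had 5278 probe sets at log2 5 or above, against 4080 to 4515 on the FVB/NJ arrays and 4205 and 4430 on the other C57Bl/6J arrays. It also carried the highest lymphocyte transcripts: Cd8b1, a chain of the CD8 coreceptor, read 3.15, 3.09 and 3.87 in FVB/NJ, against 8.99, 3.86 and 3.24 in C57Bl/6J. The samples carried the markers of blood, with Alas2, the erythroid enzyme that starts heme synthesis, at 13.89 in FVB/NJ and 14.08 in C57Bl/6J, while 7 tested heart muscle markers averaged 3.11 to 3.62 in FVB/NJ and 3.07 to 3.77 in C57Bl/6J. Whether the 3 samples of a strain were bled or processed on separate days is not stated in the labels.

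Of 11353 genes tested in GLOBINclear RNA, 404 (3.56%) differed between the strains at an adjusted p under 0.05 by limma. They comprised 227 higher (2%) and 177 lower (1.56%) in FVB/NJ, and 306 (2.7%) differed by at least 2-fold. Over all probe sets, 750 of 22518 (3.33%) passed. The 3 FVB/NJ values did not overlap the 3 C57Bl/6J values for 14.6% of genes, called or not. All 404 called genes were among these, so absence of overlap sets no called gene apart. The median difference over all genes was -0.02. Calls were more frequent among abundant transcripts: 1.13% of genes with a mean up to log2 3.5 passed, and 14.4% of genes above log2 9. The share was 8.4% at log2 5 to 7 and 13.2% at log2 7 to 9. The 3.56% set beside gene lists below is therefore not matched for level. Without C57Bl/6J replicate 1, 325 genes passed, 274 of the 404 among them, and all 404 kept their sign. Without C57Bl/6J replicate 2, 264 genes passed. Which direction held more calls depended on the arrays: without C57Bl/6J replicate 3, 580 genes passed, 244 higher and 336 lower in FVB/NJ, and with array weights 266 were higher and 281 lower.

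The whole RNA arrays pointed the same way. Of the 404 genes, 382 (94.6%) had the same sign there, against 65.2% of all genes tested. In whole RNA 167 genes (1.47%) and 298 probe sets (1.32%) passed, and 122 of the genes were among the 404 with the same sign, which is 73.1% of the calls in whole RNA and 30.2% of those in GLOBINclear RNA. No gene passed in both preparations with opposite signs. The median size of the difference over the 404 genes was 1.40 in GLOBINclear RNA and 0.89 in whole RNA. Both preparations came from the same mice, so the whole RNA arrays are not independent mice.

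**Figure D1:**
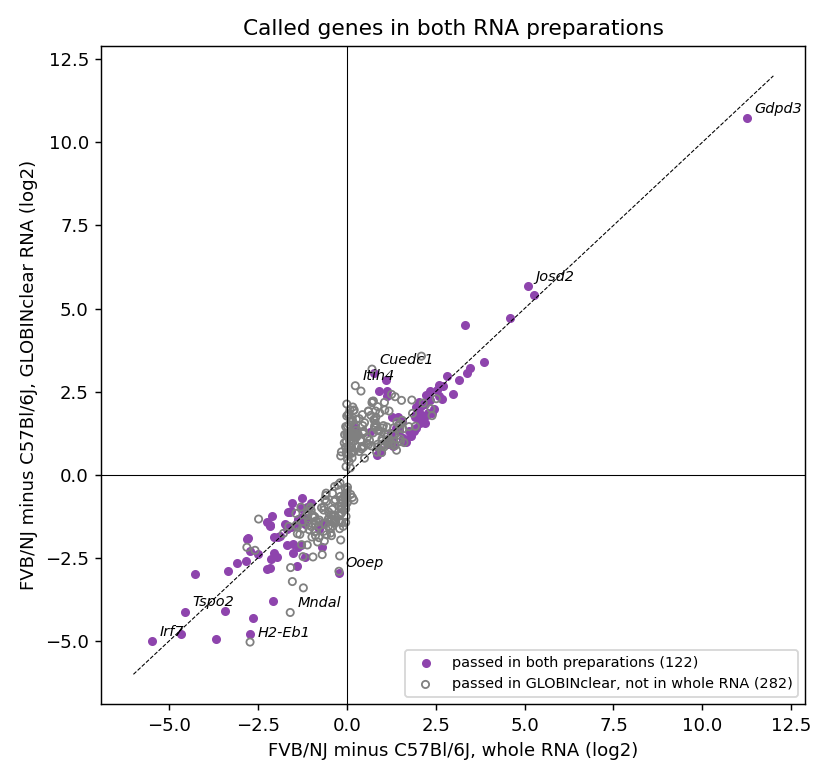
Log2 difference (FVB/NJ minus C57Bl/6J) in whole RNA on the x axis and in GLOBINclear RNA on the y axis for the 404 genes called in GLOBINclear RNA. Filled points are the 122 genes that also passed in whole RNA and open points the 282 that did not, and the dashed line marks equal differences. Most points lie in the quadrants of equal sign, and Itih4 (0.24) and Ooep (-0.23) lie near 0 in whole RNA.

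The gene furthest apart was Gdpd3 on chromosome 7, which encodes a glycerophosphodiester phosphodiesterase that acts on lysophospholipids. It read 12.88, 12.85 and 12.89 in FVB/NJ, against 2.13, 2.15 and 2.14 in C57Bl/6J (difference 10.73 ± 0.14 SE, limma adjusted p = 2.94e-16). The C57Bl/6J arrays sat at the bottom of the scale and the FVB/NJ arrays near its top. Whole RNA gave 13.49, 13.39 and 13.43 in FVB/NJ, against 2.15, 2.17 and 2.21 in C57Bl/6J. Among the other strains 129S1/ImJ averaged 13.4, while A/J, C3H/HeJ and DBA/2J averaged 2.11 to 2.16.

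The next genes by size of rise in FVB/NJ were Josd2, Glrx, Pcp4l1 and Acyp2. Josd2, a deubiquitinating enzyme with a Josephin domain, read 9.58, 9.84 and 9.46 in FVB/NJ, against 3.4, 3.97 and 4.49 in C57Bl/6J (5.67 ± 0.51 SE, adjusted p = 1.19e-05). Glrx, the glutaredoxin that removes glutathione from protein thiols, read 9.56, 11.23 and 9.2 in FVB/NJ, against 4.75, 4.44 and 4.59 in C57Bl/6J (5.41 ± 0.53 SE, adjusted p = 3.17e-05). The groups were far apart in both, and FVB/NJ replicate 2 was the highest array for Glrx. A second Glrx probe set gave 5.47. Acyp2, an acylphosphatase, averaged 8.72 ± 0.52 in FVB/NJ and 4.22 ± 0.50 in C57Bl/6J (SD, n = 3 each). Its difference of 4.50 was accompanied by differences in its called neighbours on chromosome 11, Psme4 (1.99), Erlec1 (-1.53) and Asb3 (1.63), the longest run of adjacent called genes and one with both signs.

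Pcp4l1, a small protein with an IQ motif, read 9.71, 8.8 and 8.15 in FVB/NJ, against 3.29, 3.94 and 5.24 in C57Bl/6J (4.73 ± 0.54 SE, adjusted p = 0.000103). Narf, named for its recognition of prelamin A, was higher by 3.21 ± 0.44 (SE), and its other probe set by 2.73. Cuedc1, which carries a ubiquitin-binding CUE domain, was higher by 3.18 ± 0.26 (SE), whereas its other probe set gave 0.43 and did not pass. Atf2, a stress-responsive transcription factor, was higher by 2.96 ± 0.51 (SE) on its brightest probe set, and its other 4 probe sets gave -0.01 to 0.49 with none passing. The loci 2310034O05Rik (3.40), Gm10451 (3.07) and Gm10419 (3.07) completed the 12 together with Klf1, described with the erythroid genes.

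**Figure D2:**
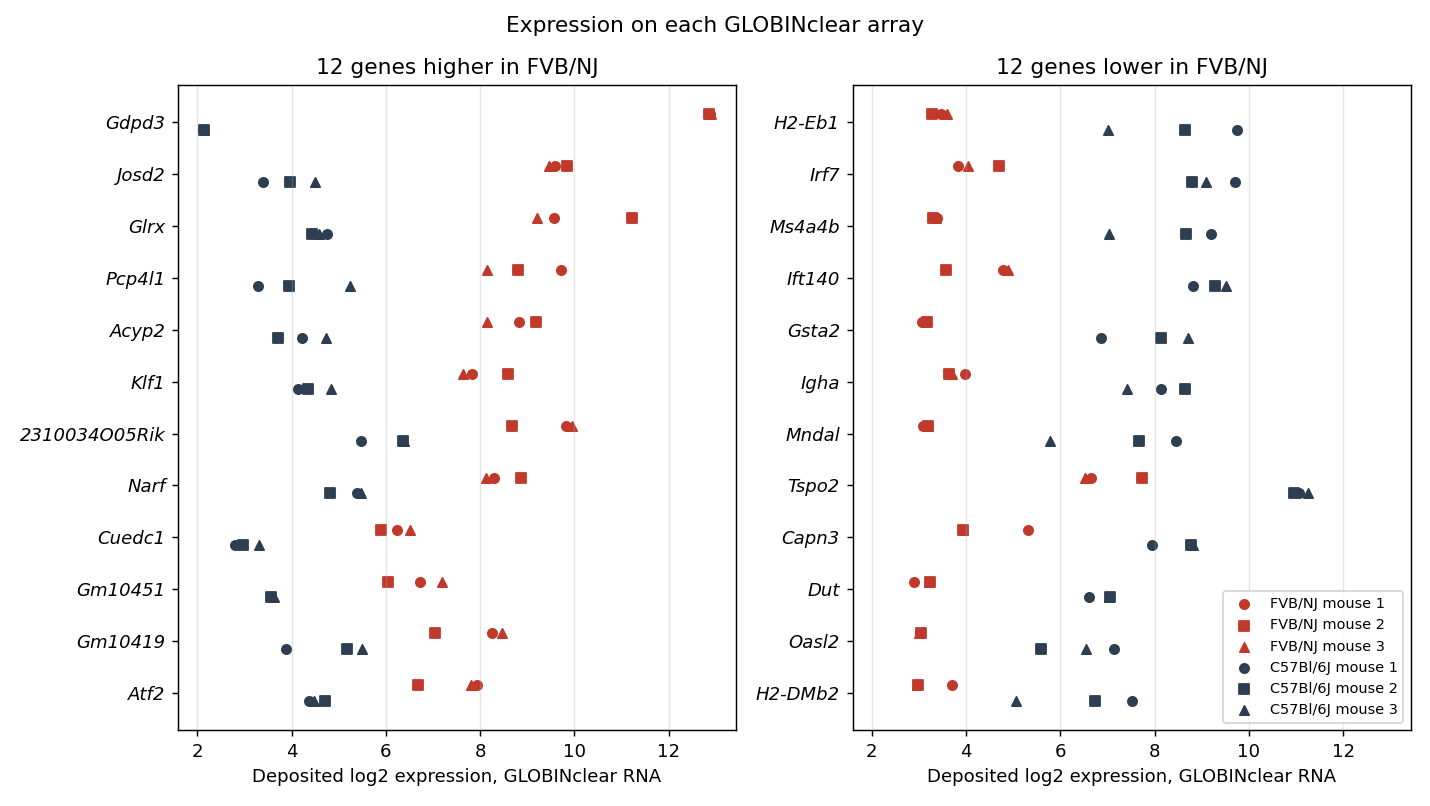
Deposited log2 expression in GLOBINclear RNA (x axis) of 12 genes that rose (left) and 12 that fell (right) furthest in FVB/NJ, 1 point per mouse, FVB/NJ above C57Bl/6J in each row. No overlap between the strains was a condition of choosing these genes. Gdpd3 is separated most (12.87 and 2.14 on average), and the C57Bl/6J points of H2-Eb1, Ms4a4b, Mndal and H2-DMb2 are spread with replicate 1 highest.

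Interferon-stimulated genes were lower in FVB/NJ where they differed. Of 33 tested, 8 fell (24.2% called, beside 3.56% of all genes) and 0 rose by limma (19 lower and 0 higher at an unadjusted p under 0.05), and the median difference was -0.59, against -0.02 over all genes. Negative differences were found for 29 of the 33. In whole RNA the median was -0.15 and 3 fell, beside 0.722% of all genes that fell there. The list's mean level was 4.42, 4.43 and 4.3 on the FVB/NJ arrays and 5.66, 5.12 and 5.13 on the C57Bl/6J arrays, which did not overlap.

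Irf7 read 3.83, 4.7 and 4.04 in FVB/NJ, against 9.7, 8.79 and 9.08 in C57Bl/6J (-5.00 ± 0.44 SE, adjusted p = 9.94e-06). Whole RNA gave 1.96, 2.4 and 2.51 in FVB/NJ, against 8.33, 7.31 and 7.66 in C57Bl/6J. All 3 FVB/NJ mice were low in both preparations. Its difference was -4.75 without C57Bl/6J replicate 1. Among the other strains 129S1/ImJ was also low at 4.73, while A/J, C3H/HeJ and DBA/2J had 7.3, 8.36 and 6.87.

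Antiviral effectors fell as well. Oasl2, of the oligoadenylate synthetase family, read 3.03, 3.04 and 3 in FVB/NJ, against 7.13, 5.6 and 6.55 in C57Bl/6J (-3.40 ± 0.32 SE, adjusted p = 1.73e-05). Ifit1, which binds foreign RNA, read 4.45, 4.71 and 4.13 in FVB/NJ, against 7.53, 6.95 and 7.29 in C57Bl/6J (-2.83 ± 0.52 SE, adjusted p = 0.00546). Neither gene overlapped between the strains. In whole RNA Oasl2 gave -1.22 (adjusted p = 0.0732) and Ifit1 -2.23 (adjusted p = 0.00743). Trim30d fell by 0.75 ± 0.10 (SE), with FVB/NJ at 3.07 to 3.16 and C57Bl/6J at 3.74 to 4.11. The other 4 called members, given here to complete the count and chosen after their values were seen, were Ifi27 (-2.10, adjusted p = 0.0498), Ifit1bl1 (-1.52), Usp18 (-1.45), a protease that removes the ubiquitin-like protein ISG15, and Ifitm3 (-1.12), a membrane protein that blocks viral entry. Ifitm3 was the most abundant called member, at 10.04, 9.09 and 9.68 in FVB/NJ, against 11.06, 10.41 and 10.71 in C57Bl/6J.

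The other 25 members did not pass. Oas3 gave -2.72 with FVB/NJ replicate 2 at 7.34 and the others at 4.85 and 5.05, against 8.38 to 8.55 in C57Bl/6J (adjusted p = 0.0986). Rsad2 was at 13.39 to 13.51 in FVB/NJ and 13.55 to 13.68 in C57Bl/6J, and Mx1, which many laboratory strains carry as a defective allele, was at the bottom of the scale in both. Irf9, which forms the interferon-activated complex with the Stat proteins, gave -0.53 and Stat2 -0.04, neither passing. Without C57Bl/6J replicate 1, 5 of the 8 calls remained, 1 other member passed, and the list median was -0.28.

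The promoters of Ifit1, Ifitm3, Trim30d and Irf7 are shown because these genes fell in FVB/NJ and because the letters GAAANNGAAA, or TTTCNNTTTC on the opposite strand, resemble the element through which interferon-activated factors act. Capitals mark every match. The sequences are RefSeq's for build GRCm38.p6, the C57BL/6J reference, and run from 250 bases before to 50 bases after the annotated start in the direction of the gene. The windows are chr19:34640639-34640938 on the plus strand for Ifit1, and on the minus strand chr7:141010695-141010994 for Ifitm3, chr7:104507800-104508099 for Trim30d and chr7:141266375-141266674 for Irf7.
Ifit1: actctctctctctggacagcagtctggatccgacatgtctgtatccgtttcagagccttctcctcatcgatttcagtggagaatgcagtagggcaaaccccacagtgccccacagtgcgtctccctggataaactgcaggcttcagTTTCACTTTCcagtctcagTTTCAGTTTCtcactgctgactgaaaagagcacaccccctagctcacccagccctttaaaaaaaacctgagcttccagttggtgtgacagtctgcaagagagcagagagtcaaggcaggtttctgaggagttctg
Ifitm3: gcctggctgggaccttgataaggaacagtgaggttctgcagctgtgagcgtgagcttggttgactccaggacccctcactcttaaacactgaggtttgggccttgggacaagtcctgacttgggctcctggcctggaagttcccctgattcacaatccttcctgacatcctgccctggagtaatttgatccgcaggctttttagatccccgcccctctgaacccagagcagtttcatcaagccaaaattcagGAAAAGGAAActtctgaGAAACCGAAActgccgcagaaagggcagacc
Trim30d: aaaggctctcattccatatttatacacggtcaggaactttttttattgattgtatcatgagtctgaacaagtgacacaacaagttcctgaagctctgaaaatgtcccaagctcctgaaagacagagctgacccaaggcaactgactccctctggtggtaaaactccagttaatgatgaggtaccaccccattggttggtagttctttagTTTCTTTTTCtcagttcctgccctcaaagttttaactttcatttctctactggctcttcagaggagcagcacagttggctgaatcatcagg
Irf7: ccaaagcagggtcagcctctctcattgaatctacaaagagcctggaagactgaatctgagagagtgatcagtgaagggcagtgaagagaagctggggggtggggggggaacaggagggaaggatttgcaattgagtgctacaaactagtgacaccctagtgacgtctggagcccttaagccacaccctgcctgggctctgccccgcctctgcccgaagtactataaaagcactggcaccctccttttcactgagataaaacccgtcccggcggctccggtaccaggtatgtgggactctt
The Ifit1 window held 2 matches, which began 104 and 85 bases before the start, the Ifitm3 window held 2 after the start, and the Trim30d window held 1, which began 41 bases before it. The Irf7 window held none. Over the whole list, 4 of the 6 called members with a promoter entry had a match, as had 10 of the 18 tested members that were not called, while 3.99% of all 27025 genes with an entry did. A match describes the reference sequence and carries no measurement of FVB/NJ DNA.

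Other interferon-linked families moved in part. Of 7 tested genes of the Trim5-like and Trim30 cluster on chromosome 7, 3 fell (42.9% called, beside 3.56% of all genes): Trim12a (-1.02 ± 0.20 SE), Trim30d and Trim5 (-0.37 ± 0.07 SE). All 3 lay near the bottom of the scale, and their C57Bl/6J means were outside the range of the other 4 strains. Trim30a gave -0.90 and did not pass, and a second Trim12a probe set gave -0.04. In whole RNA the cluster's median was -0.11 and none of the 3 passed, with Trim30d at -0.32, Trim12a at -0.05 and Trim5 at 0.02. With the 6 GLOBINclear arrays of both strains alone, none of the 3 passed by limma either. The adjusted p was 0.0995 for Trim30d, 0.297 for Trim5 and 0.302 for Trim12a. Of 7 Ifi200 family members, which sense nucleic acids, 1 fell (14.3% called, beside 3.56% of all genes). Mndal read 3.09, 3.2 and 3.19 in FVB/NJ, against 8.45, 7.67 and 5.78 in C57Bl/6J (-4.14 ± 0.46 SE, adjusted p = 8.9e-05). Its FVB/NJ arrays sat together at the bottom, as did A/J at 3.16 and DBA/2J at 3.2, while C57Bl/6J was spread. A second Mndal probe set gave -2.78. In whole RNA Mndal gave -1.59 and did not pass (adjusted p = 0.514), with C57Bl/6J at 7, 4.11 and 3.5. Its strain difference differed between preparations (adjusted p = 0.0193). With the 6 arrays of both strains alone, Mndal did not pass in GLOBINclear RNA (adjusted p = 0.0529). Of 10 interferon-inducible GTPases, which attack vacuoles of intracellular parasites, 1 was called (10%, beside 3.56% of all genes). Irgm2 rose by 1.06 ± 0.27 (SE, adjusted p = 0.0466) and none fell by limma (3 lower at an unadjusted p under 0.05). That call was lost when any single array was left out.

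**Figure D3:**
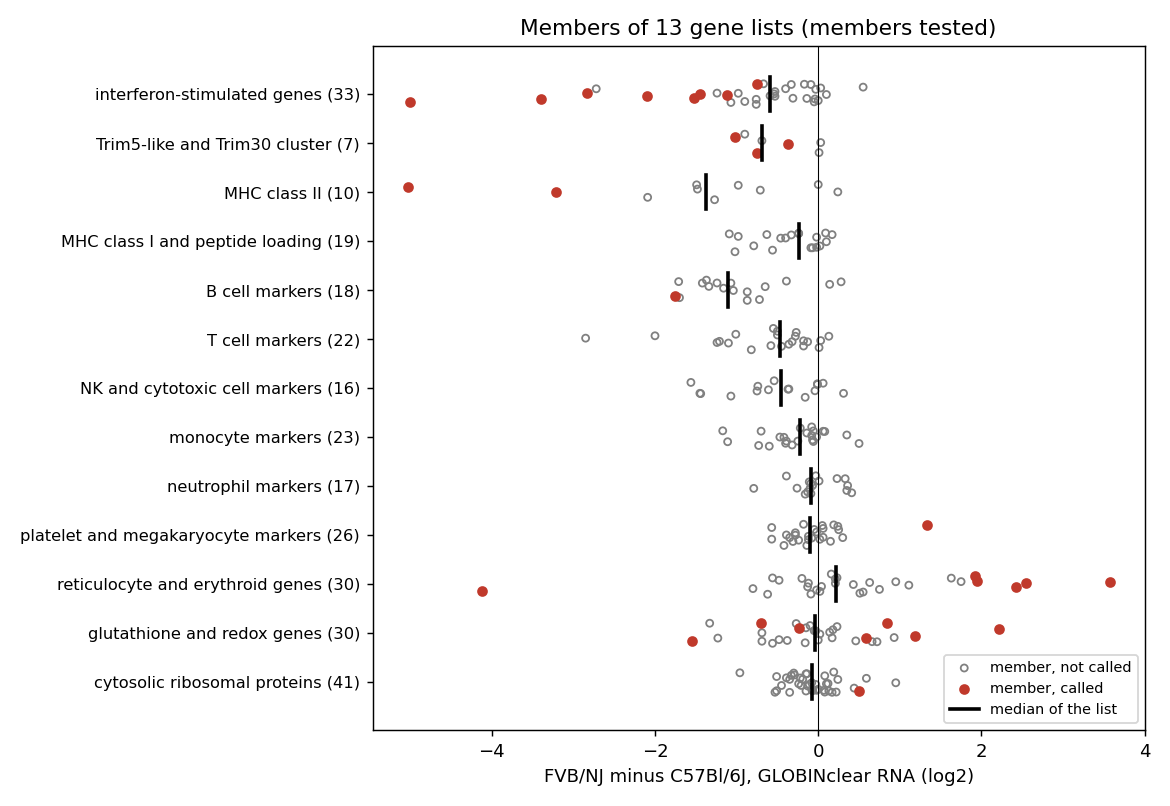
Log2 difference (FVB/NJ minus C57Bl/6J) in GLOBINclear RNA for the members of 13 gene lists, with the number tested in brackets. Filled points passed at an adjusted p under 0.05, open points did not, and the bar is the list's median. Interferon-stimulated genes and MHC class II have medians of -0.59 and -1.37, and erythroid and redox genes have calls on both sides.

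Of 10 tested MHC class II genes 2 fell in FVB/NJ (20% called, beside 3.56% of all genes), and the median difference was -1.37 in GLOBINclear RNA and -0.99 in whole RNA. H2-Eb1, the beta chain of the E molecule, read 3.47, 3.27 and 3.59 in FVB/NJ, against 9.75, 8.65 and 7.02 in C57Bl/6J (-5.03 ± 0.68 SE, adjusted p = 0.000449). The FVB/NJ arrays were at the bottom of the scale, and the other strains were at 6.28 to 8.85. H2-DMb2, a chaperone chain for peptide loading, read 3.71, 2.98 and 2.97 in FVB/NJ, against 7.51, 6.73 and 5.05 in C57Bl/6J (-3.21 ± 0.65 SE, adjusted p = 0.0104). One further probe set of H2-DMb2 gave -3.61 and passed, and another gave -0.30 and did not. In whole RNA H2-Eb1 gave -2.72 (adjusted p = 0.135) and H2-DMb2 -1.53 (adjusted p = 0.386), and neither passed. There 1 other class II gene of the 10 fell, beside 0.722% of all genes.

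The remaining class II genes did not pass. H2-Ab1, the beta chain of the A molecule, gave -2.09 (adjusted p = 0.0771), its partner H2-Aa gave -0.71 and Cd74, the invariant chain, gave -1.48. H2-Ea, the alpha chain that pairs with H2-Eb1, was near the bottom of the scale in both strains, at 3.41 to 3.65 in FVB/NJ and 3.12 to 3.38 in C57Bl/6J, beside 6.41 in DBA/2J. Laboratory strains of some H2 haplotypes are known not to make this chain. The class II list averaged 4.95, 4.17 and 4.43 on the FVB/NJ arrays and 6.97, 6.21 and 5.18 on the C57Bl/6J arrays. Without C57Bl/6J replicate 1, H2-Eb1 gave -4.39 and still passed, H2-DMb2 gave -2.67 (adjusted p = 0.0588), and the list median was -0.82. Without C57Bl/6J replicate 2, H2-DMb2 gave -3.06 (adjusted p = 0.0516). MHC class I and peptide loading genes had 0 of 19 called by limma (2 at an unadjusted p under 0.05, both lower) and a median of -0.24.

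Lymphocyte markers had negative medians as well. B cell markers had a median of -1.11, with 16 of 18 negative. Of the 18, 1 passed (5.56%, beside 3.56% of all genes): Fcmr, the IgM receptor (-1.76 ± 0.46 SE, adjusted p = 0.0495). The B cell list averaged 5.23, 4.27 and 4.54 on the FVB/NJ arrays and 6.39, 5.89 and 4.87 on the C57Bl/6J arrays, so 1 C57Bl/6J array lay within the FVB/NJ range. T cell markers had a median of -0.47 and 0 of 22 called by limma (3 at an unadjusted p under 0.05), averaging 4.65, 4.19 and 4.57 in FVB/NJ and 6.44, 4.75 and 4.18 in C57Bl/6J. Without C57Bl/6J replicate 1 the medians were -0.73 for B cells and 0.08 for T cells. The part of lymphocyte RNA in the class II, interferon, Mndal, Ms4a4b and Igha results was not tested.

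Ms4a4b, a membrane protein of T cells, read 3.38, 3.3 and 3.37 in FVB/NJ, against 9.2, 8.66 and 7.04 in C57Bl/6J (-4.95 ± 0.55 SE, adjusted p = 7.96e-05). Igha, the IgA heavy chain constant region, read 3.97, 3.63 and 3.7 in FVB/NJ, against 8.13, 8.65 and 7.42 in C57Bl/6J (-4.30 ± 0.52 SE, adjusted p = 0.000178). Both were at the bottom of the scale on every FVB/NJ array. The other 4 strains held Ms4a4b at 7.48 to 9.34, and Igha at 7.25 to 8.09 apart from DBA/2J at 3.98. The 2 other Igha probe sets gave -3.75 and -2.51 and passed. Of the 8 tested Ms4a genes only Ms4a4b passed (12.5% called, beside 3.56% of all genes), and Ms4a1, which encodes CD20, gave -1.24 (adjusted p = 0.461). Thy1, a T cell surface protein with strain alleles, gave -2.85 (adjusted p = 0.0797), at 4.31, 3.93 and 3.26 in FVB/NJ, against 9.01, 6.71 and 4.33 in C57Bl/6J.

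Other white cell lists showed no called marker. By limma 0 of 16 NK and cytotoxic, 0 of 17 neutrophil, 0 of 23 monocyte and 0 of 8 eosinophil, basophil and mast cell markers passed, with medians of -0.46, -0.09, -0.22 and 0.02. At an unadjusted p under 0.05 those counts were 2, 0, 1 and 0. Neutrophil markers averaged 4.88 to 5.32 in FVB/NJ and 4.93 to 5.31 in C57Bl/6J. Among Fc receptor genes, Fcer1g, the signalling chain shared by several of these receptors, read 9.46, 8.93 and 9.38 in FVB/NJ, against 10.27, 10.52 and 10.79 in C57Bl/6J (-1.27 ± 0.19 SE, adjusted p = 0.000995). It was the 1 of 5 tested that passed (20% called, beside 3.56% of all genes), and the groups did not overlap. In whole RNA Fcer1g gave -0.94 and did not pass (adjusted p = 0.364). Complement genes (14 tested), Slam family receptors (8), lectin receptors of the NK gene complex (16), Ly6 genes (4) and immediate early genes (21) each had 0 called by limma, with medians of -0.21, -0.23, -0.05, -0.59 and -0.20. At an unadjusted p under 0.05 they had 0, 2, 1, 2 and 0.

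**Figure D4:**
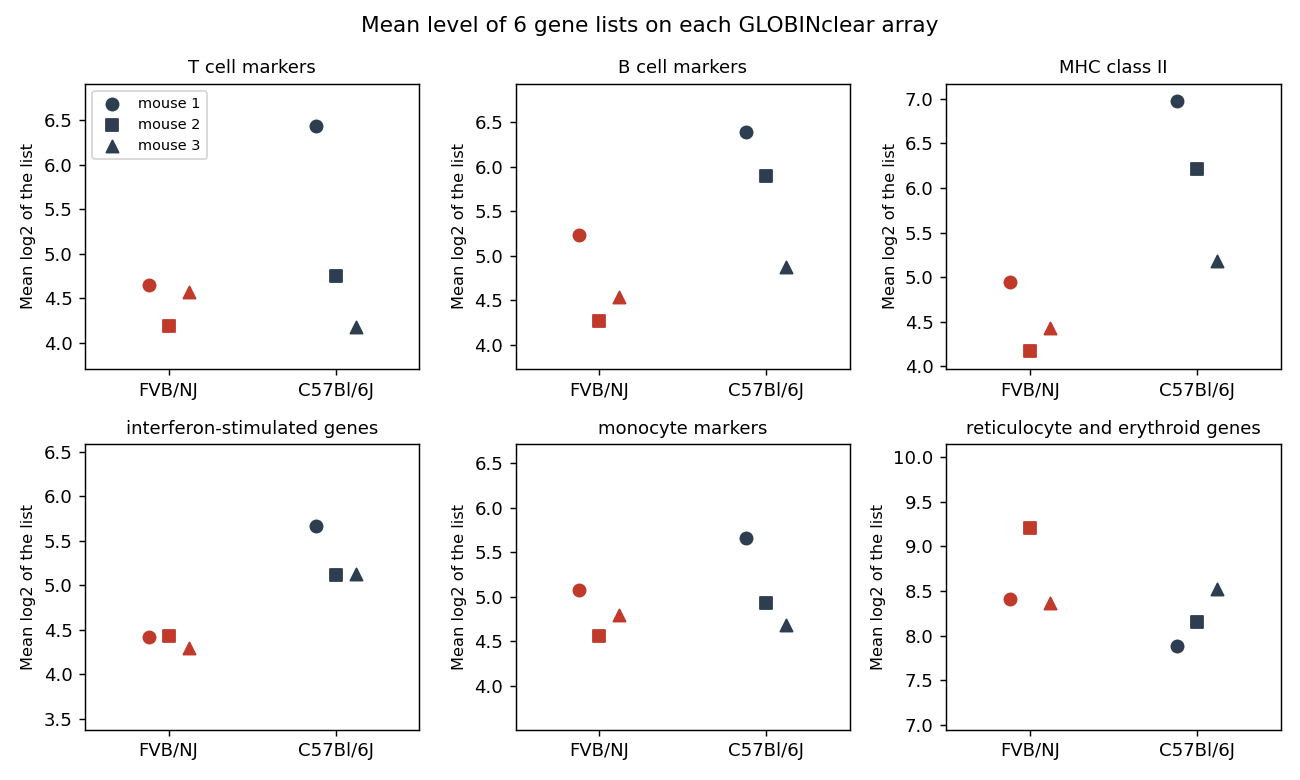
Mean log2 expression of 6 gene lists (y axis) on each GLOBINclear array, FVB/NJ left and C57Bl/6J right, 1 point per mouse, with a y axis of equal length in every panel. C57Bl/6J replicate 1 is highest in T cell, B cell, MHC class II, interferon-stimulated and monocyte genes (6.44 for T cell markers), and FVB/NJ replicate 2 is highest in erythroid genes (9.21).

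Erythroid genes differed in both directions. Of 30 tested, 5 rose and 1 fell (20% called, beside 3.56% of all genes and 13.2% of genes at log2 7 to 9), with a median of 0.22. Klf1, the erythroid transcription factor that drives adult beta globin, read 7.82, 8.59 and 7.63 in FVB/NJ, against 4.13, 4.34 and 4.84 in C57Bl/6J (3.57 ± 0.53 SE, adjusted p = 0.00102). In whole RNA Klf1 gave 2.10 (adjusted p = 0.0877). Ermap, an erythroid membrane protein of a blood group system, rose by 2.54 ± 0.44 (SE) and Alad, an enzyme of heme synthesis, by 2.42 ± 0.36 (SE). Alad read 6.82, 7.77 and 6.99 in FVB/NJ, against 4.62, 4.67 and 5.04 in C57Bl/6J. In whole RNA Alad gave 1.26 (adjusted p = 0.316) and Ermap 2.53 (adjusted p = 0.0097). Add2, a membrane skeleton adducin (1.95), and Icam4, an adhesion protein of red cells (1.92), complete the count and were chosen after their values were seen.

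Tspo2 went the other way. This erythroid cholesterol-binding protein read 6.65, 7.74 and 6.53 in FVB/NJ, against 11.07, 10.96 and 11.25 in C57Bl/6J (-4.12 ± 0.46 SE, adjusted p = 8.9e-05). Whole RNA gave 5.06, 6.73 and 5.03 in FVB/NJ, against 10.04, 10.11 and 10.32 in C57Bl/6J, and the other strains had 7.44 to 8.82 in GLOBINclear RNA, between them. The abundant reticulocyte genes did not pass: Alas2 gave -0.20, Slc4a1, the anion exchanger, gave -0.12, and Fech, which inserts iron into heme, gave 0.04. Tfrc, the transferrin receptor of immature red cells, gave 1.75 (adjusted p = 0.162). The list averaged 8.41, 9.21 and 8.37 on the FVB/NJ arrays and 7.88, 8.15 and 8.52 on the C57Bl/6J arrays, which overlap. Of platelet and megakaryocyte markers 1 of 26 passed, a share of 3.85%, beside 3.56% of all genes and 14.4% of genes above log2 9. The list is abundant, averaging 9.48 to 10.16 on the 6 arrays. The marker that passed was F2rl2, a thrombin-activated receptor of mouse platelets. F2rl2 read 6.94, 7.11 and 7.39 in FVB/NJ, against 5.58, 6.05 and 5.83 in C57Bl/6J (1.33 ± 0.20 SE, adjusted p = 0.00105). A second F2rl2 probe set gave -0.27 and did not pass, and in whole RNA the first gave 0.87 (adjusted p = 0.284). The platelet list's median was -0.10.

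Glutathione and redox genes had 4 of 30 higher and 3 lower, with a median of -0.04. That is 23.3% called, beside 3.56% of all genes and 8.4% of genes at log2 5 to 7. Gstt1, a theta class glutathione transferase, read 5.66, 7.54 and 5.82 in FVB/NJ, against 3.67, 4.08 and 4.65 in C57Bl/6J (2.21 ± 0.40 SE, adjusted p = 0.00473). Whole RNA gave 3.62, 5.81 and 3.41 in FVB/NJ, against 3.45, 3.6 and 3.64 in C57Bl/6J (0.72, adjusted p = 0.666). The strain difference of Gstt1 differed between preparations (adjusted p = 0.0301). Gstm5, of the mu class, rose by 0.84 ± 0.15 (SE). Cat, the catalase that clears hydrogen peroxide, read 11.66, 12.33 and 11.66 in FVB/NJ, against 12.61, 12.54 and 12.6 in C57Bl/6J (-0.70 ± 0.15 SE, adjusted p = 0.0135). A second Cat probe set gave -0.16 and did not pass. Gpx1, a glutathione peroxidase, gave -0.24 (adjusted p = 0.0474) and was chosen after its values were seen. Glo1, the glyoxalase that clears methylglyoxal, gave -1.55 ± 0.41 (SE, adjusted p = 0.0497), while its other 3 probe sets gave -0.04 to 0.44 with none passing.

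Prdx2, an abundant red cell peroxiredoxin, depended on the probe set. Its brightest set read 13.57, 13.64 and 13.6 in FVB/NJ, against 12.88, 12.98 and 13.18 in C57Bl/6J (0.59 ± 0.12 SE, adjusted p = 0.0085), and another set averaged 5.86 in FVB/NJ and 8.61 in C57Bl/6J (-2.75, adjusted p = 4.37e-05). Both passed, in opposite directions. Among the 205 called genes with another tested probe set, 253 of 324 such sets had the same sign, 101 also passed in the same direction, and 5 passed in the opposite one. Whether strain differences in sequence under the probes take part in these disagreements was not tested. Nor was it tested for genes at the bottom of the scale in FVB/NJ, such as H2-Eb1 and Ms4a4b.

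Among the largest falls outside the immune lists, Gsta2, an alpha class glutathione transferase, read 3.06, 3.17 and 3.15 in FVB/NJ, against 6.87, 8.14 and 8.71 in C57Bl/6J (-4.78 ± 0.35 SE, adjusted p = 1.36e-06). Its called neighbour on chromosome 9, Ooep, known from oocytes, gave -2.94. Ooep passed the filter only through its high C57Bl/6J GLOBINclear arrays (mean over all arrays 2.93, threshold 2.89). Ift140, a part of the transport machinery of cilia, read 4.78, 3.57 and 4.9 in FVB/NJ, against 8.82, 9.29 and 9.52 in C57Bl/6J (-4.79 ± 0.74 SE, adjusted p = 0.00136). Capn3, a calcium-dependent protease best known in muscle, fell by 4.11 ± 0.36 (SE), and Dut, which removes dUTP before it enters DNA, fell by 3.78 ± 0.22 (SE). In all 4 genes, none of the FVB/NJ arrays overlapped C57Bl/6J, which was a condition of choosing them. Second probe sets of Capn3 (-2.23) and Dut (-1.48) passed in the same direction. Capn3 was as high in DBA/2J (7.84) as in C57Bl/6J (8.51 on average) to within 1 log2 unit, and low in 129S1/ImJ (3.25) and C3H/HeJ (3.49).

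Of 21 tested genes listed for known strain alleles, 3 rose (Gdpd3, Alad and Nnt) and 2 fell (Trim30d and Glo1), which is 23.8% called beside 3.56% of all genes. This list was chosen with earlier results of these data known, so its share only describes the list. Nnt, the mitochondrial transhydrogenase of which C57BL/6J is known to carry a deletion, read 5.3, 4.76 and 4.88 in FVB/NJ, against 3.78, 3.82 and 3.79 in C57Bl/6J (1.19 ± 0.26 SE, adjusted p = 0.0181). The groups did not overlap, but whole RNA gave 0.01 and a second probe set -0.02. Hc, the complement component that FVB/NJ is known to lack, was at the bottom of the scale in both strains, at 2.86 to 2.9 in FVB/NJ and 2.86 to 2.98 in C57Bl/6J. The 5 tested Y-linked genes had a median of 0.04 and 0 called by limma, also at an unadjusted p under 0.05. Of 41 cytosolic ribosomal protein genes 1 was called (2.44%, beside 3.56% of all genes and 14.4% of genes above log2 9), and the list median was -0.08. The called gene was Rpl41, which rose by 0.50 ± 0.12 (SE), while its other 3 probe sets gave 0.08 to 0.15 with none passing.

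The means of both strains were set beside those of the other 4. Of the 404 called genes, 148 (36.6%) had the C57Bl/6J mean alone outside the range of the other 4 strain means, 84 (20.8%) the FVB/NJ mean alone, 143 (35.4%) both and 29 (7.18%) neither. Over all genes tested those shares were 19.3%, 16.2%, 15.8% and 48.7%. For H2-Eb1, Ms4a4b and H2-DMb2 the FVB/NJ mean alone lay outside the range of the other 4, at the low end. For Gsta2, Ift140 and Oasl2 the C57Bl/6J mean alone lay outside it, at the high end. The same held at the low end for Josd2, Cuedc1 and 2310034O05Rik. A mean outside the range can lie close to another strain. For 2310034O05Rik C57Bl/6J averaged 6.08 and 129S1/ImJ 6.53, and for Gsta2 129S1/ImJ averaged 5.54. Gm10451 read 6.66 on average in FVB/NJ and 3.49 to 3.59 in C57Bl/6J and the other strains. No test was made of these placements.

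**Figure D5:**
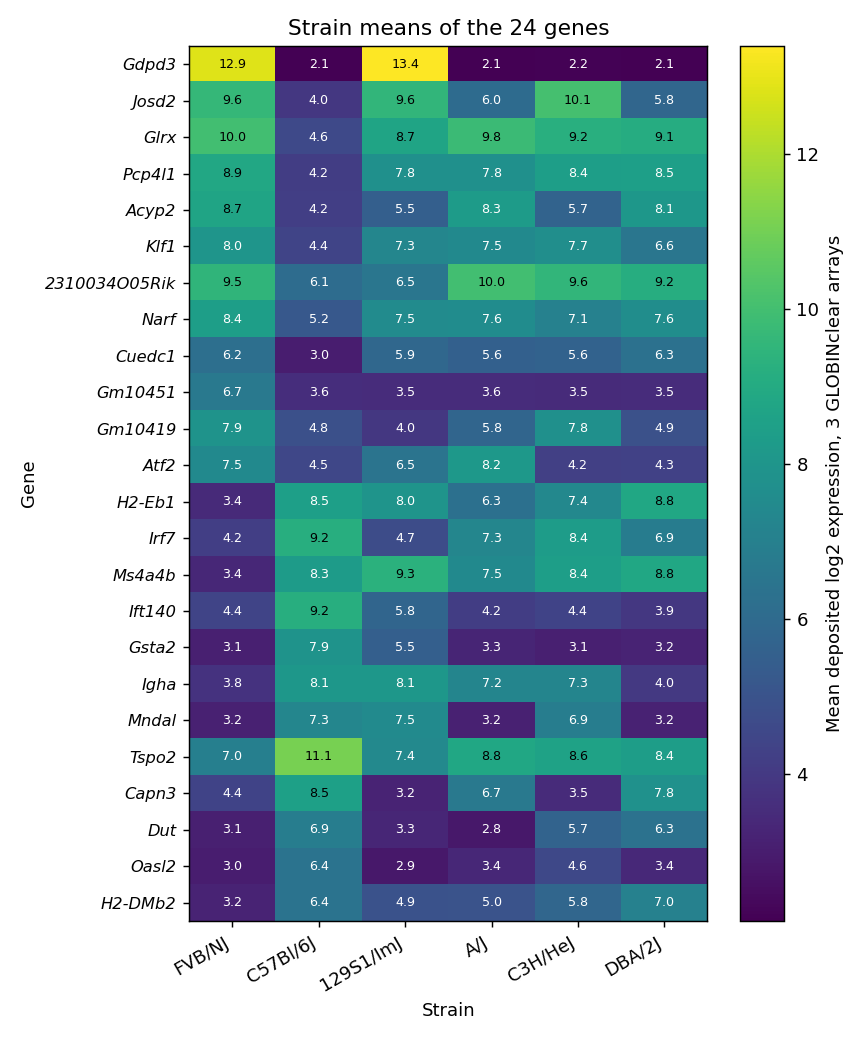
Mean deposited log2 expression in GLOBINclear RNA (colour and printed value, 3 arrays per cell) of the 24 genes in 6 strains, with FVB/NJ and C57Bl/6J in the first columns. Gdpd3 is high in FVB/NJ and 129S1/ImJ (12.87 and 13.4), and Gsta2 is low in FVB/NJ (3.12) and high in C57Bl/6J (7.9).

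The strain difference itself was compared between preparations, as the difference in GLOBINclear RNA minus that in whole RNA over the same mice. It passed for 142 of 22518 probe sets (0.631%) and for 75 genes. In 102 of the 142 both differences had 1 sign and the GLOBINclear difference was larger, in 11 the whole RNA difference was larger, and in 29 the signs were opposite. Both strains had a whole RNA mean under log2 4 for 94 of them. Cuedc1 gave 3.18 in GLOBINclear RNA and 0.71 in whole RNA, where it read 3.59, 3.29 and 4.19 in FVB/NJ, against 2.85, 3.03 and 3.06 in C57Bl/6J. Itih4, an inhibitor heavy chain of plasma, gave 2.68 in GLOBINclear RNA and 0.24 in whole RNA. Itih4 passed the filter only through its high FVB/NJ GLOBINclear arrays (mean over all arrays 3.01, threshold 2.89). Gdpd3 was larger in whole RNA by 0.53 (adjusted p = 0.000723).

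Called genes lay on every chromosome tested except Y. The called share by chromosome was 2.11% on X to 5.36% on chromosome 12, with 4.83% on chromosome 17, which holds H2. Of the 404, 44 lay in 21 runs of adjacent tested genes that were all called, and 1 run was longer than 2. The runs included Trim5 with Trim12a on chromosome 7 and Ell2 with Glrx on chromosome 13.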

How the data were processed

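Gene expression was measured on Affymetrix arrays of 45101 probe sets in 36 blood samples of 18 mice, 3 per strain. The deposited values were log2 summaries, read as log2 from their range. GCRMA, MAS5 and affy are named in the submitters' processing notes, without version or role. The sources used here do not say whether the preparations were normalized together, and name no hybridization or scan batch. Groups and replicate numbers came from the sample titles.

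Control probe sets (64) were left out, and 22518 probe sets with a mean over all arrays above the median of those means (log2 2.89) were tested. Names came from the platform annotation: 34945 probe sets had 1 symbol, 932 several and 9160 none, and genes were named from the first kind alone. Each gene was read from its probe set of highest mean (18193 genes, 11353 tested). Differences were FVB/NJ minus C57Bl/6J in limma 3.58.1 (R 4.3.3), with an intensity trend, over the 18 arrays of a preparation with strain as the factor, and Benjamini-Hochberg adjustment at 0.05. The difference between preparations was fitted on GLOBINclear minus whole values per mouse. The fit was tested on simulated data. The genes named were the 12 largest rises and falls that also had no overlap between strains and the same sign in whole RNA, up to 4 called members of each of 27 lists by smallest p, the tested genes of the strain allele and Y lists, and 6 genes by the test between preparations. Members and lists were chosen with earlier results of these data known. The main fit did not pair mice of different strains by replicate number. Deviations of arrays with the same number correlated across the strains at 0.34, -0.11 and 0.08 in GLOBINclear RNA. In whole RNA they correlated at 0.18, -0.14 and 0.06. Both arrays of 1 mouse correlated at 0.29 to 0.66. With so few values, these correlations do not decide whether a replicate number marks a shared batch. The 17 alternatives changed the filter, scaling, trend, weights, block, samples or gene summary, or left out 1 array at a time. Promoter sequences were RefSeq's (GRCm38.p6). Figures were drawn in matplotlib 3.10.9. P-values rest on the spread between mice within a strain, pooled over all 6 strains of 3 mice each. They do not rest on the spread of FVB/NJ and C57Bl/6J alone, and the number of arrays limits the precision.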

Additional observations from a re-analysis of the deposited data

Results flagged for a closer look

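The strain difference was tested for a change between RNA preparations, and 142 probe sets passed by limma. The 6 named genes with the smallest adjusted p are given here as the difference FVB/NJ minus C57Bl/6J in GLOBINclear RNA minus the same difference in whole RNA. Gm10451 gave 2.30 (adjusted p = 5.28e-06), where whole RNA read 4.56, 4.25 and 4.57 in FVB/NJ and 3.54, 3.65 and 3.89 in C57Bl/6J. Gsta2 gave -2.06 (adjusted p = 1.93e-05), with whole RNA at 3.35 to 3.37 in FVB/NJ and 5.41, 6.26 and 6.59 in C57Bl/6J. Ooep gave -2.72 (adjusted p = 1.93e-05), with whole RNA means of 2.7 in FVB/NJ and 2.93 in C57Bl/6J. Itih4 gave 2.44 (adjusted p = 9.48e-05), Oasl2 -2.19 (adjusted p = 0.000283) and Cuedc1 2.48 (adjusted p = 0.000354). In all 6 genes the sign was the same in both preparations and the difference was larger in GLOBINclear RNA. Ooep and Itih4 averaged 2.93 and 3.01 over all 36 arrays, near the filter at log2 2.89. They passed it only through the GLOBINclear arrays of the strain where they are high. Their tests are therefore not independent of the filter. Outliers within a group were not tested, since each group holds 3 arrays.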

How the results depend on the processing

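With the 6 arrays of both strains alone, 152 probe sets and 82 genes passed in GLOBINclear RNA, 45 probe sets in whole RNA and 0 in the test between preparations (1456 at an unadjusted p under 0.05, limma). With array weights 2109 probe sets passed in whole RNA, against 298 without, and with a mean above log2 4 the test between preparations gave 55. The fit of 6 arrays used fewer samples and the filter at log2 4 fewer probe sets, and the cause of these shifts was not tested. Leaving out 1 array gave 478 (without C57Bl/6J replicate 2) to 1055 (without C57Bl/6J replicate 3) probe sets and 264 to 580 genes in GLOBINclear RNA by the same arrays, with 42.1% to 58.6% of the genes higher in FVB/NJ against 56.2% with all arrays, 195 (without FVB/NJ replicate 3) to 345 probe sets in whole RNA, and 73 (without FVB/NJ replicate 1; 74 without C57Bl/6J replicate 2) to 134 between preparations. With the replicate number as a block, 708 probe sets and 378 genes passed in GLOBINclear RNA, 276 in whole RNA and 132 between preparations. The block moved no count by over 1.5 times and ended the call of Glo1 (adjusted p = 0.0841) alone among the called named genes. Over 17 alternatives, 26 of 43 called named genes kept their direction and call throughout. Of 724 values 662 did, 61 no longer passed and 1 reversed: Prdx2 gave -1.08 (adjusted p = 0.00356) as the mean of all its tested probe sets. The calls lost most often were Glo1 (13 alternatives), Irgm2 (10), Fcmr and Rpl41 (8 each), Nnt (5), Cat (4) and H2-DMb2 (3). The interferon-stimulated genes had 3 lower with the 6 arrays alone to 10 with array weights, and MHC class II had 1 lower without C57Bl/6J replicate 1 or 2 or with the 6 arrays alone to 4 without C57Bl/6J replicate 3. Over all 11353 genes tested, 37 were called lower with the 6 arrays alone and 281 with array weights. Without C57Bl/6J replicate 1 the number was 157, without replicate 2 it was 129, and without replicate 3 it was 336. With 3 mice per strain, a gene that missed the threshold is not shown to be equal.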

Other observations

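Hbb-b2, an adult beta globin gene, was called on its brighter probe set although the GLOBINclear kit removes globin mRNA. That set averaged 8.17 ± 0.31 in FVB/NJ and 5.65 ± 0.79 in C57Bl/6J (SD, n = 3 each), a difference of 2.52 ± 0.38 (SE, limma adjusted p = 0.00102), and whole RNA gave 2.33 (adjusted p = 0.000105). The gene's other probe set gave 0.10 and did not pass. Adult beta globin genes are near-identical copies whose haplotypes differ between strains, so the assignment to Hbb-b2 is uncertain.

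The following genes lie outside the lists and were chosen after their values were seen. Itga4, an integrin of white cells, averaged 2.77 in FVB/NJ and 5.56 in C57Bl/6J (-2.79 ± 0.35 SE, adjusted p = 0.000289), with -1.58 in whole RNA (adjusted p = 0.0656). Cd36, a fatty acid and scavenger receptor, averaged 6.37 in FVB/NJ and 9.04 in C57Bl/6J (-2.66 ± 0.48 SE, adjusted p = 0.00459), with -3.08 in whole RNA. Rhoj, a small GTPase, averaged 6.33 in FVB/NJ and 9.32 in C57Bl/6J (-2.98 ± 0.55 SE, adjusted p = 0.00568), with -4.28 in whole RNA. Pck2, the mitochondrial phosphoenolpyruvate carboxykinase, averaged 10.47 in FVB/NJ and 7.61 in C57Bl/6J (2.85 ± 0.45 SE, adjusted p = 0.00157), with 3.15 in whole RNA, and Slc15a2, a peptide transporter, averaged 6.21 in FVB/NJ and 3.37 in C57Bl/6J (2.84 ± 0.33 SE, adjusted p = 0.000112), with 1.09 in whole RNA.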
